A study of Mus musculus with 12 samples.

Results

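Death ligands, the receptors they bind and the caspases that the receptors switch on are described here through 8 genes, chosen by symbol, of the 35855 genes summed from the deposited transcripts. They are the ligands Fasl and Tnfsf10, the receptor Fas, the adaptor Fadd, the initiator caspase Casp8, its brake Cflar, and Apaf1 and Casp9 of the mitochondrial branch. RNA was sequenced from 12 samples of mouse spleen sorted as CD8 T cells, 3 in each of 4 groups. All donors were of the C57BL/6 background. WT and TCF-1 cKO cells were taken pre-transplant, or at day 7 from lethally irradiated BALB/c recipients given donor CD3 T cells. The study's transplants also gave recipients WT bone marrow depleted of T cells. The labels call the mutant TCF-7 cKO, after Tcf7, the gene for TCF-1. It carried floxed TCF-1 alleles and a CD4cre transgene, which deletes the gene at the double-positive stage of thymocytes, a stage that CD4 and CD8 T cells both pass through. A Cre-only control is not analysed here, and nothing says whether the libraries of a group came from separate mice, so p-values measure only the spread between these samples.

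Cytotoxic T cells kill in part through ligands of the tumor necrosis factor family. Fas ligand on the killer cell clusters Fas on the target, Fas recruits the adaptor Fadd, and Fadd brings together procaspase-8 molecules that cut each other into active enzyme. TRAIL, the product of Tnfsf10, does the same through its own death receptor, Tnfrsf10b in the mouse. Cflar encodes c-FLIP, a caspase-8 relative that occupies the same complex and limits its activity. In the mitochondrial branch, cytochrome c released into the cytosol assembles Apaf1 into the apoptosome, on which caspase-9 is activated. Both branches end in further caspases that take the cell apart. Activated T cells induce Fas ligand, and the same pathway also removes T cells after they have expanded, in graft-versus-host disease as elsewhere.

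Fasl (ENSMUSG00000000817) lies on chromosome 1 from 161780689 to 161788495 on the minus strand of GRCm38, and Fas (ENSMUSG00000024778) on chromosome 19 from 34290666 to 34327772. Casp8 (ENSMUSG00000026029, 58795374 to 58847503) and Cflar (ENSMUSG00000026031, 58711508 to 58758884) are neighbors on chromosome 1. Tnfsf10 (ENSMUSG00000039304) lies on chromosome 3 from 27317028 to 27342427, Fadd (ENSMUSG00000031077) on chromosome 7 from 144577318 to 144582463, Apaf1 (ENSMUSG00000019979) on chromosome 10 from 90989311 to 91082770, and Casp9 (ENSMUSG00000028914) on chromosome 4 from 141793612 to 141815976. Upstream sequences from RefSeq on GRCm38.p6 were found for all 8. Those of the ligand, its receptor and the caspase that differed most between genotypes at day 7 are shown. Each is the 250 bases before the RefSeq start, at chr1:161788496-161788745 on the minus strand for Fasl, chr19:34290409-34290658 on the plus strand for Fas, and chr4:141793362-141793611 on the plus strand for Casp9. Capitals mark matches, on either strand, to the letters searched.
Fasl: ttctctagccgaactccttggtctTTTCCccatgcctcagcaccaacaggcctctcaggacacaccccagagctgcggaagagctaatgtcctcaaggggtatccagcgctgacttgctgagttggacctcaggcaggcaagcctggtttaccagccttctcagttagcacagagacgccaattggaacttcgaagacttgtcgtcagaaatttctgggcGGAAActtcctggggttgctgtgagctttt
Fas: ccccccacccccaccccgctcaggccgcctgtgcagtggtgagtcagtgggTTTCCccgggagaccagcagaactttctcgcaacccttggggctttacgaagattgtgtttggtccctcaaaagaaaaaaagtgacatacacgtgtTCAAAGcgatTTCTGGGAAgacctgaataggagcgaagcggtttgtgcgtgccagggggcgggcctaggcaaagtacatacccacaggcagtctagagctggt
Casp9: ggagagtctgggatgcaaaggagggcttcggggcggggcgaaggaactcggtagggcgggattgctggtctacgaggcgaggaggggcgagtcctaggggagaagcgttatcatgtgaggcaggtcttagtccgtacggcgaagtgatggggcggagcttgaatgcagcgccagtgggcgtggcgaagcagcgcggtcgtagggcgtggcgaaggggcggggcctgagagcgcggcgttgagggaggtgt
The letters searched were CTTTGA for TCF/LEF factors such as TCF-1, GGAAA for NFAT, the NF-kappaB and interferon-stimulated response element consensus letters, and TTCNNNGAA for the gamma-activated site. The NF-kappaB letters contain those of NFAT. Fasl held 2 NFAT matches, at -226 to -222 and at -30 to -26, counted back from -1 at the base before the start, and none of the other letters. Fas held CTTTGA at -103 to -98, beside a gamma-activated site match at -93 to -85 and an NFAT match at -199 to -195. Casp9 held no match, and neither did Cflar or Apaf1. Fadd was the only other member with CTTTGA, at -110 to -105, and Tnfsf10 and Casp8 held only NFAT matches. Variants of these letters were not searched, so the lack of a match holds for the letters given alone. Among 32851 mouse promoter windows of the same length, 13.8% held CTTTGA, 55.6% GGAAA, 0.356% the NF-kappaB letters, 2.98% the interferon-stimulated response element and 7.02% the gamma-activated site letters. A match is a string of letters and no evidence of binding.

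Library totals lay between 4520270 and 9577076 estimated counts in the pre-transplant TCF-1 cKO group and between 18184814 and 32657005 in the other 9 libraries. Levels are given as normalized CPM, read counts scaled to a common library size by edgeR's TMM factors over all 12 libraries. The targeted gene Tcf7 was at 26.2, 34.1 and 62.7 CPM in pre-transplant TCF-1 cKO and 117, 76.0 and 166 CPM in pre-transplant WT. Day 7 cells had 14.6, 13.6 and 14.1 CPM in TCF-1 cKO and 26.9, 26.4 and 10.7 CPM in WT, which puts the lowest of the 6 values in a library labelled WT, replicate 3. The log2 difference between genotypes was -1.35 pre-transplant and -0.91 at day 7, and neither passed the test (edgeR adjusted p = 0.223 and 0.308). Other T cell transcripts were lower too in pre-transplant TCF-1 cKO. Cd8a and Cd8b1 summed to 131 to 186 CPM against 348 to 453 CPM in WT. The T cell markers summed to 142 to 262 CPM against 606 to 704 CPM. Their part in the Tcf7 difference was not tested. Values without WT day 7 replicate 3 are given where it decides a call. One label of TCF-1 cKO day 7 replicate 2 names CD4 T cells, but its Cd4 level of 1.42 CPM of the library total lay within the day 7 range of 0.799 to 4.31.

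The pre-transplant libraries went against their label. The 7 B cell markers, among them Cd79a, Ms4a1 and Pax5, summed to 5285 to 12886 CPM in pre-transplant TCF-1 cKO and 12652 to 18530 CPM in pre-transplant WT, against 493 to 784 CPM and 695 to 1114 CPM at day 7. Cd8a and Cd8b1 summed to 131 to 186 CPM and 348 to 453 CPM pre-transplant and to 1518 to 3084 CPM at day 7. All markers of both lists were detected. The 7 myeloid markers summed to 840 to 2991 CPM pre-transplant and 187 to 759 CPM at day 7, and the 4 erythroid markers to 961 to 7819 CPM and 156 to 951 CPM. The 4 NK cell markers, which matter here since NK cells also make Fasl and Tnfsf10, summed to 58.2 to 96.0 CPM in pre-transplant TCF-1 cKO, 30.1 to 113 CPM in pre-transplant WT, 40.0 to 49.4 CPM in day 7 TCF-1 cKO and 14.5 to 44.8 CPM in day 7 WT. T cell markers summed to 142 to 704 CPM pre-transplant and 3424 to 6376 CPM at day 7, CD4 markers to 27.4 to 145 CPM and 4.70 to 62.7 CPM, plasma cell markers to 147 to 1182 CPM and 3.68 to 11.5 CPM, and dendritic cell markers to 28.4 to 124 CPM pre-transplant. At day 7 the dendritic cell markers were at 39.5, 30.1 and 39.4 CPM in TCF-1 cKO and at 92.2, 140 and 59.7 CPM in WT, without overlap. Their part in the day 7 genotype differences was not tested. Marker levels thus moved with stage in both genotypes and with genotype at both stages, and this cannot be told apart from change within CD8 T cells. In such bulk RNA, fewer cells of a type and less RNA per cell cannot be told apart either.

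**Figure D1:**
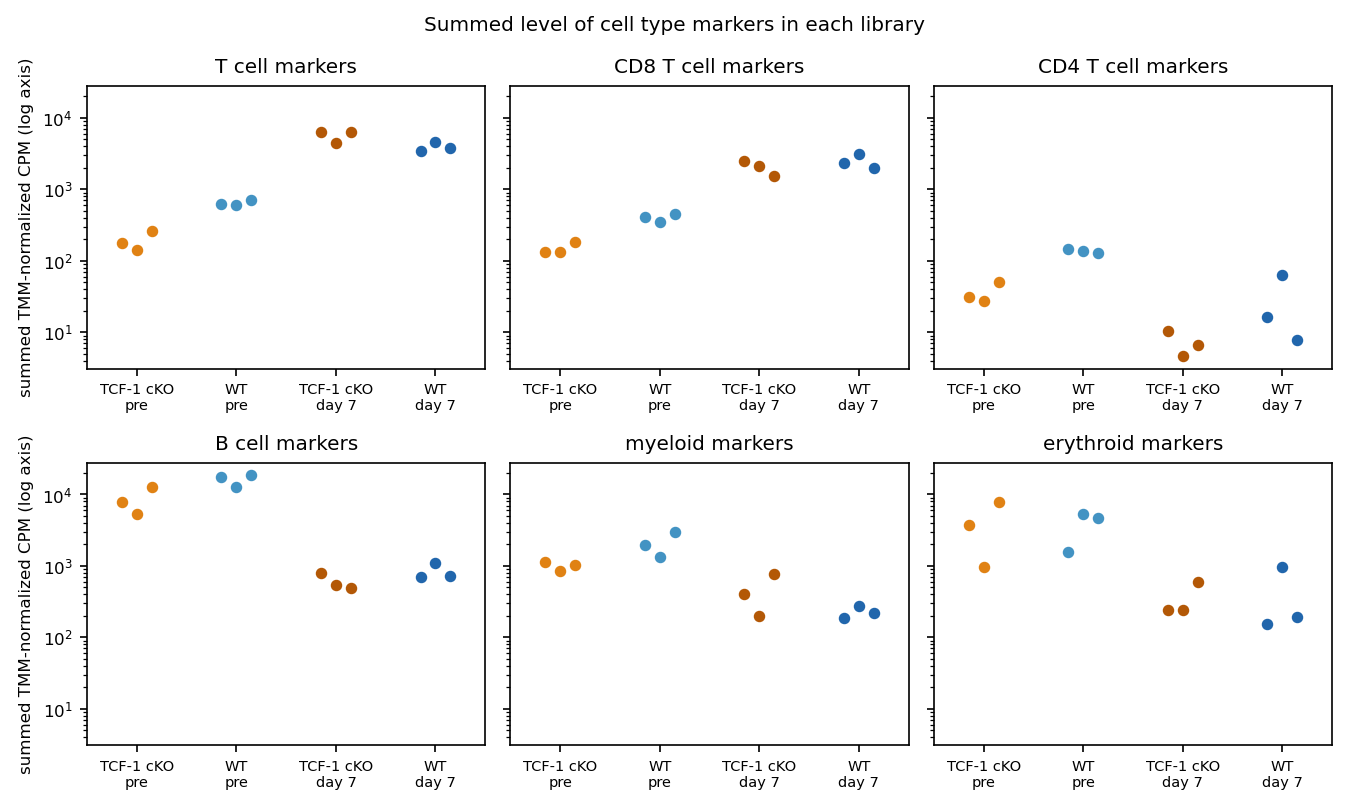
Summed TMM-normalized CPM (log axis) of 6 lists of cell type markers, with 1 point for each of the 3 libraries of a group. B cell markers lay between 5285 and 18530 CPM in the pre-transplant libraries and at most at 1114 CPM at day 7, while CD8 markers lay at most at 453 CPM pre-transplant and at least at 1518 CPM at day 7.

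Fasl was higher at day 7 than pre-transplant in both genotypes, 21.1-fold in WT and 43.7-fold in TCF-1 cKO on the fitted scale. In TCF-1 cKO, Tnfsf10 and Fas were also higher at day 7 and Casp9 was lower, whereas Fadd, Casp8, Cflar and Apaf1 passed the test in neither genotype. Between genotypes, Casp9 at day 7 was the only member past the threshold, lower in TCF-1 cKO. Each comparison was fitted by itself with edgeR's quasi-likelihood test and Benjamini-Hochberg adjustment over all genes tested, and called at an adjusted p below 0.1, the study's FDR.

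These counts are read against all genes tested. Pre-transplant, 0 of 8 members were called between genotypes, as were 0.0160% of 18757 genes higher and 0.0213% lower. Without adjustment 3322 genes, 17.7%, had p below 0.05. DESeq2 called 0 members as well, and 4.90% of all genes higher and 2.84% lower. At day 7, 0 members were called higher in TCF-1 cKO, against 2.51% of 16026 genes, and 1 lower, against 15.4%, so 1 member of 8 is a share close to the background. From pre-transplant to day 7, WT gave 1 member higher and 0 lower, against 9.70% higher and 10.3% lower of 16790 genes. TCF-1 cKO gave 3 higher and 1 lower, against 19.7% higher and 16.8% lower of 18535 genes. With library totals or log2(TPM + 1) in place of TMM, 1 member was higher and 4 were lower in TCF-1 cKO, against 57.2% and 62.8% of all genes lower. The comparisons share libraries with each other and are not independent. Over the 8 members the median log2 fold change of TCF-1 cKO against WT was 0.18 pre-transplant and 0.48 at day 7, and that of day 7 against pre-transplant was -0.30 in WT and 0.40 in TCF-1 cKO. Over all genes tested the same medians were 0.05, 0.15, -0.30 and -0.29.

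Stage comparisons turn on how libraries are scaled. TMM factors ranged from 0.456 in WT day 7 replicate 2 to 2.31 in TCF-1 cKO pre-transplant replicate 2. With library totals alone, the median of all genes at day 7 against pre-transplant was -1.25 in WT and -1.89 in TCF-1 cKO, and the median of the genotype comparisons rose to 0.39 and 0.54. The split of genes called higher and lower went from 1628 and 1734 to 717 and 4136 in WT, and from 3660 and 3114 to 1660 and 10608 in TCF-1 cKO. Relative to the median of all genes, Fasl stood 4.70 higher at day 7 in WT with TMM and 4.85 higher with library totals, both on the log2 scale. In TCF-1 cKO the corresponding values were 5.74 and 5.73 for Fasl, 2.13 and 2.11 for Tnfsf10, 2.66 and 2.53 for Fas, 1.27 and 1.26 for Casp8 and -2.30 and -2.35 for Casp9. A change of scaling moves all genes of a comparison by nearly the same amount, which subtracting the median removes. The likeness of these relative values thus follows from the subtraction and does not show which scaling is right. A scaling to the summed Cd8a and Cd8b1 counts, chosen after the data were seen, moved the stage medians of all genes to -2.62 in WT and -4.00 in TCF-1 cKO.

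**Figure D2:**
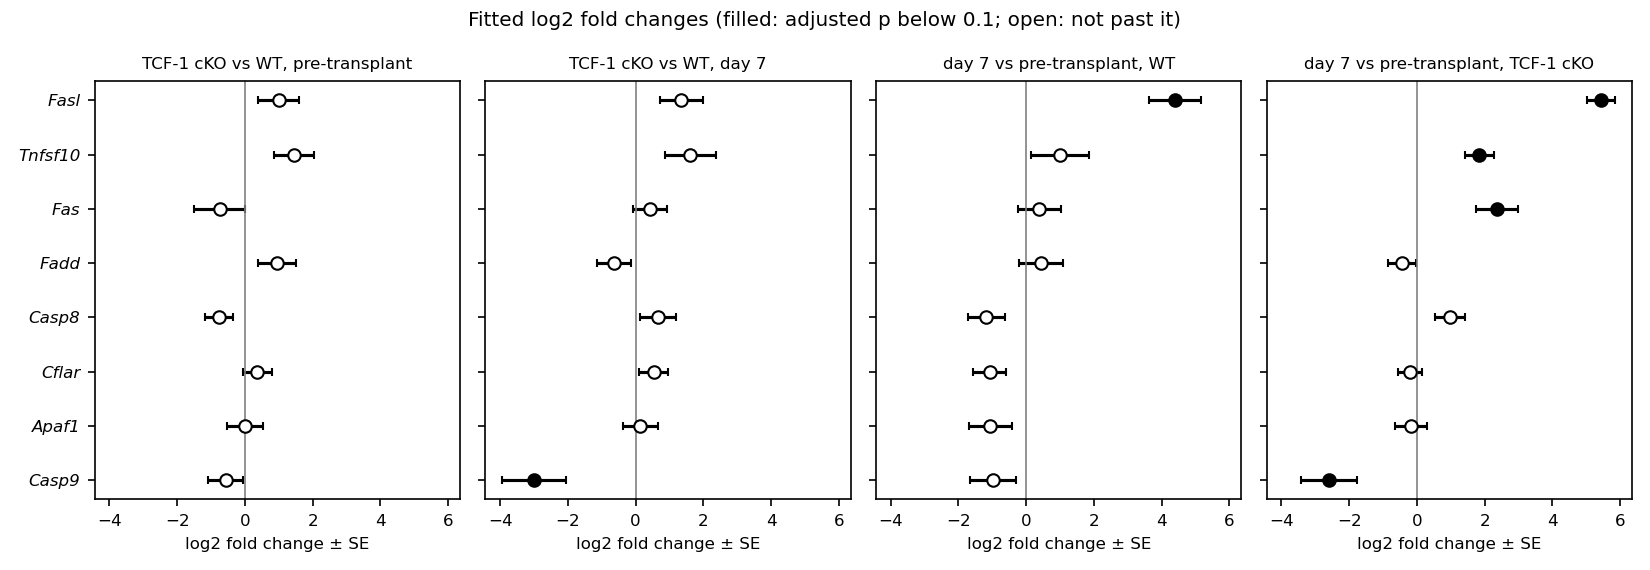
Fitted log2 fold changes (points) with standard errors (bars) of the 8 genes in 4 comparisons, from TMM-scaled counts of 3 libraries against 3. Filled points passed an adjusted p of 0.1: Casp9 between genotypes at day 7, Fasl by stage in WT, and Fasl, Tnfsf10, Fas and Casp9 by stage in TCF-1 cKO.

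Fasl, which encodes Fas ligand, was at 8.40, 5.33 and 7.11 CPM in pre-transplant WT and at 8.93, 13.7 and 12.5 CPM in pre-transplant TCF-1 cKO. Day 7 levels were 147, 45.2 and 344 CPM in WT and 569, 419 and 561 CPM in TCF-1 cKO. All day 7 libraries lay above all pre-transplant libraries, and the TCF-1 cKO libraries lay above the WT libraries at both stages. The log2 fold change from pre-transplant to day 7 was 4.40 (SE 0.76, edgeR adjusted p = 0.00546) in WT and 5.45 (SE 0.41, adjusted p = 0.000105) in TCF-1 cKO. Without WT day 7 replicate 2 or replicate 3 the WT value was 5.12 or 3.77, still called. Scaled to CD8 counts it was 2.27 (adjusted p = 0.0294) and 1.74 (adjusted p = 0.003). Between genotypes it was 0.99 (SE 0.60) pre-transplant and 1.35 (SE 0.63) at day 7, neither past the threshold (edgeR adjusted p = 0.374 and 0.202). The WT day 7 libraries spanned from 45.2 to 344 CPM, around a group mean of 179 CPM, against 516 CPM in TCF-1 cKO. Without the library labelled WT replicate 3 the day 7 difference was 1.97 and passed the threshold (adjusted p = 0.0473), and without any other library it ranged from 0.87 to 1.40 and did not.

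Tnfsf10, which encodes TRAIL, was at 6.99, 6.24 and 5.19 CPM in pre-transplant WT and at 19.0, 10.8 and 13.1 CPM in pre-transplant TCF-1 cKO. Day 7 levels were 12.3, 2.42 and 29.9 CPM in WT and 47.8, 37.3 and 69.8 CPM in TCF-1 cKO. Here too the TCF-1 cKO libraries lay above the WT libraries at both stages, while WT day 7 replicate 2 was the lowest of all 12. Day 7 exceeded pre-transplant in TCF-1 cKO with a log2 fold change of 1.84 (SE 0.43, edgeR adjusted p = 0.0108). In WT the value was 0.99 (SE 0.85, adjusted p = 0.489). With library totals the TCF-1 cKO value was 0.23 (adjusted p = 0.685), and scaled to CD8 counts it turned to -1.84, against a median of all genes of -4.00. Relative to that median it was 2.16 higher, beside 2.13 with TMM, a likeness that subtracting the median brings about. The genotype difference was 1.45 (SE 0.59) pre-transplant and 1.62 (SE 0.76) at day 7, with edgeR adjusted p of 0.248 and 0.206. Leaving out WT day 7 replicate 3 gave 2.33 at day 7 (adjusted p = 0.0706).

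Fasl and Tnfsf10 were 2 of the 8 members whose groups did not overlap with TCF-1 cKO higher pre-transplant, where 16.1% of all genes tested did the same. Casp8 was the 1 member lower without overlap, against 14.3%. At day 7 the members higher in TCF-1 cKO without overlap were Fasl, Tnfsf10 and Cflar, 3 of 8 against 23.4%, and Casp9 was lower, 1 of 8 against 17.3%. By stage in WT, Fasl was higher without overlap, against 15.9%, and Cflar and Apaf1 were lower, against 16.2%. By stage in TCF-1 cKO, Fasl, Tnfsf10 and Fas were higher, against 23.1%, and Casp9 was lower, against 23.8%. Each of these, on TMM-normalized CPM, gives p = 0.1 in a two-sided exact permutation test, the smallest p that 3 libraries against 3 allow. With library totals, Tnfsf10 and Fas overlapped by stage in TCF-1 cKO, and Fadd, Casp8, Cflar and Apaf1 joined Casp9 as lower. By stage in WT, Casp8 and Casp9 joined Cflar and Apaf1 as lower. Between genotypes, Casp8 then overlapped pre-transplant, and Fas was higher without overlap at day 7. The share of all genes without overlap was not worked out for library totals.

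**Figure D3:**
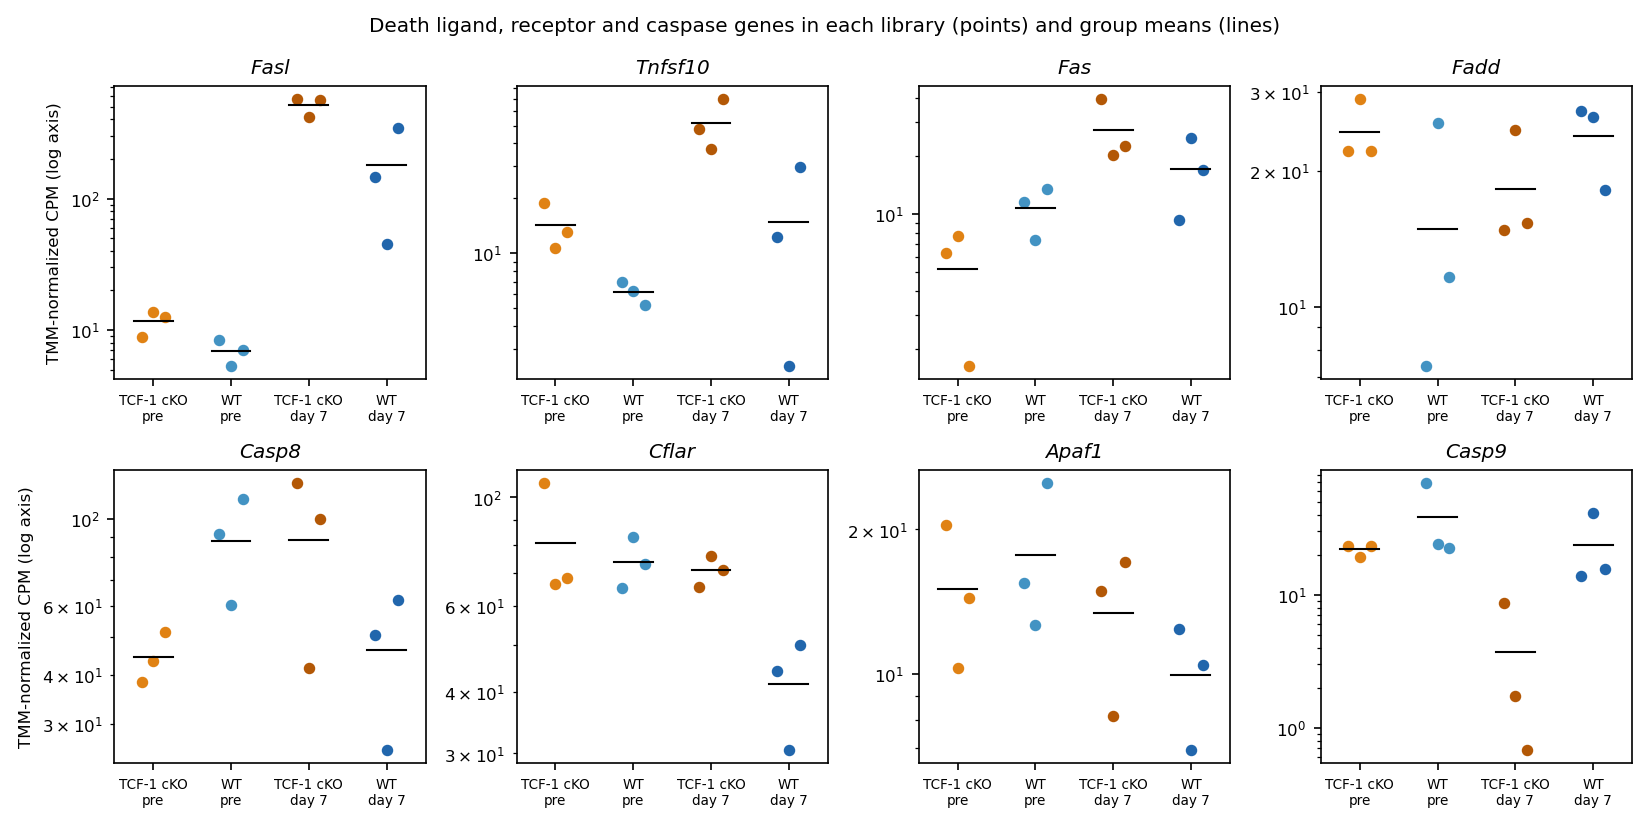
TMM-normalized CPM (log axes with a range of their own) of the 8 genes in every library (points) and the mean of each group of 3 (lines). Fasl rises from at most 13.7 CPM pre-transplant to at least 45.2 CPM at day 7, while Casp9 in day 7 TCF-1 cKO lies at 0.680 to 8.66 CPM, below the other 9 libraries.

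Fas, the receptor for Fas ligand, was at 11.5, 7.36 and 13.4 CPM in pre-transplant WT and at 6.30, 7.69 and 1.63 CPM in pre-transplant TCF-1 cKO. Levels at day 7 were 9.29, 24.8 and 16.9 CPM in WT and 39.3, 20.1 and 22.5 CPM in TCF-1 cKO. The WT groups overlapped between stages, and the TCF-1 cKO groups did not. In TCF-1 cKO the log2 fold change by stage was 2.37 (SE 0.63, edgeR adjusted p = 0.0198), and in WT it was 0.38 (SE 0.64, adjusted p = 0.743). The TCF-1 cKO value was 0.64 with library totals (adjusted p = 0.421) and turned to -1.51 when scaled to CD8 counts. Relative to the median of all genes it was 2.49 higher with that scaling and 2.66 higher with TMM, again through the subtraction. Whether the stage change differed between genotypes was tested over all 12 libraries, and that difference, 1.73 (SE 0.88), missed the threshold (edgeR adjusted p = 0.344).

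Fadd, the adaptor that links the receptor to caspase-8, was at 22.2, 28.9 and 22.2 CPM in pre-transplant TCF-1 cKO and at 7.39, 25.6 and 11.7 CPM in WT. At day 7 it was at 14.8, 24.7 and 15.4 CPM in TCF-1 cKO and at 27.2, 26.4 and 18.2 CPM in WT. Groups overlapped in all 4 comparisons and no value was called. The genotype difference was 0.95 pre-transplant, or 1.59 without WT replicate 2 (edgeR adjusted p = 0.128), and -0.65 at day 7. By stage the value was 0.45 in WT, turning to -0.61 with library totals, and -0.43 in TCF-1 cKO, or -2.04 with library totals, where the median of all genes was -1.89. An annotated antisense gene, Faddos, overlaps Fadd, and the library kit does not mark strand, so reads from the shared stretch cannot be told apart.

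Casp8, the initiator caspase of the death receptors, was at 38.4, 43.4 and 51.7 CPM in pre-transplant TCF-1 cKO and at 91.9, 60.3 and 113 CPM in pre-transplant WT. At day 7 the order of the group means turned, with 124, 41.6 and 100 CPM in TCF-1 cKO and 50.8, 25.7 and 62.4 CPM in WT. On this scale pre-transplant groups did not overlap and day 7 groups did. With library totals the pre-transplant groups overlapped. Per count of Cd8a and Cd8b1, pre-transplant TCF-1 cKO was the higher without overlap, as it was for 44.1% of all genes. The genotype difference was -0.76 (SE 0.42) pre-transplant and 0.66 (SE 0.54) at day 7 on the log2 scale. In a separate fit over all 12 libraries, the change of the genotype difference between stages was 1.92 (SE 0.71). It had the smallest unadjusted p among the members, 0.0165, but an edgeR adjusted p of 0.255. Of 21526 genes tested for such a change, 0.00465% were called, and 3377 (15.7%) had an unadjusted p below 0.05. DESeq2 gave an adjusted p of 0.0867 for Casp8, its only member past the threshold there, 1 of 8 where DESeq2 called 7.96% of all genes. The stage value of Casp8 in TCF-1 cKO, 0.98 (SE 0.44, edgeR adjusted p = 0.131), passed without pre-transplant replicate 3, at 1.19 (adjusted p = 0.0744), or without day 7 replicate 2, at 1.35 (adjusted p = 0.0471).

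Cflar, which restrains caspase-8, was at 107, 66.5 and 68.5 CPM in pre-transplant TCF-1 cKO and at 65.4, 83.1 and 73.1 CPM in WT. At day 7 it was at 65.6, 76.0 and 71.2 CPM in TCF-1 cKO and at 44.2, 30.5 and 50.0 CPM in WT. Day 7 WT libraries lay below all other libraries. Neither the genotype difference at day 7, 0.53 (SE 0.43), nor the WT stage difference, -1.08 (SE 0.50), passed the test (edgeR adjusted p = 0.446 and 0.185). With library totals the WT stage value was -2.02 (adjusted p = 0.0245). In TCF-1 cKO the stage value was -0.20 (SE 0.35, adjusted p = 0.712), and with counts rebuilt from length-scaled TPM it turned to 1.36 and passed the test (adjusted p = 0.0187). All of these are gene sums, while protein-coding Cflar transcripts, given below, held less TPM at day 7 than pre-transplant in both genotypes.

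Apaf1, the scaffold of the apoptosome, ranged from 10.3 to 20.4 CPM in pre-transplant TCF-1 cKO, 12.7 to 25.0 CPM in pre-transplant WT, 8.15 to 17.1 CPM in day 7 TCF-1 cKO and 6.94 to 12.4 CPM in day 7 WT. Genotypes overlapped at both stages, with log2 fold changes of -0.005 (SE 0.53) and 0.14 (SE 0.51).

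Casp9, the caspase that Apaf1 activates, reached the lowest CPM of any member, in day 7 TCF-1 cKO replicate 3. It was at 23.1, 19.2 and 23.4 CPM in pre-transplant TCF-1 cKO and at 68.7, 24.1 and 22.3 CPM in pre-transplant WT. At day 7 it was at 8.66, 1.72 and 0.680 CPM in TCF-1 cKO, from 99, 22 and 11 counts, and at 13.9, 41.1 and 15.5 CPM in WT, from 289, 527 and 182 counts. Every day 7 TCF-1 cKO library lay below all other libraries. The log2 fold change against WT at day 7 was -3.00 (SE 0.94, edgeR adjusted p = 0.0807), and that by stage in TCF-1 cKO was -2.59 (SE 0.82, adjusted p = 0.0424). By stage in WT it was -0.97 (SE 0.68, adjusted p = 0.391). The genotype call at day 7 held when WT replicate 3 was left out (adjusted p = 0.0482) and was lost without any other library, with log2 fold changes of -4.59 to -2.33 and adjusted p between 0.146 and 0.213. The stage call in TCF-1 cKO was lost without day 7 replicate 2, at -2.21 (adjusted p = 0.142), and without day 7 replicate 1 the value was -4.17 (adjusted p = 0.00526).

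A base composition trend ran with the day 7 genotype difference. Across the 16026 genes, which are not independent replicates, log2 fold changes correlated with GC content at a Spearman rho of -0.551, and Casp9 has a GC content of 57.4%, above that of 90.4% of them. Fasl lies at the other end, at 42.9% and the 13.8th percentile. With an offset removing the GC content and length trends of every library, rho was -0.0105, the Casp9 difference was -1.24 (edgeR adjusted p = 0.377) and that of Fasl was 0.71 (adjusted p = 0.334). The stage difference of Casp9 in TCF-1 cKO was then -2.13 (adjusted p = 0.0647), and Fasl by stage was 4.35 in WT and 4.55 in TCF-1 cKO (adjusted p = 0.00085 and 3.67e-05). The 3' end of Casp9 overlaps the pancreatic enzyme genes Ctrc and Cela2a on the opposite strand, which held 25 to 127 and 0 to 202 counts per library. At day 7 Cela2a held 188, 130 and 0 counts in WT and 16, 6 and 10 in TCF-1 cKO. Ctrc held 51, 29 and 51 counts in WT and 47, 45 and 61 in TCF-1 cKO. Since the kit does not mark strand, reads from the shared stretch cannot be told apart, and their part in the Casp9 difference was not tested.

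Counts of the ligands were also set against those of the CD8 co-receptor genes. Per 100 counts of Cd8a and Cd8b1, Fasl was at 6.76, 10.5 and 6.71 in pre-transplant TCF-1 cKO and 2.06, 1.53 and 1.57 in WT. The day 7 ratios were 22.9, 19.9 and 37.0 in TCF-1 cKO and 6.26, 1.46 and 17.1 in WT. Tnfsf10 was at 14.4, 8.21 and 7.08 in pre-transplant TCF-1 cKO and 1.72, 1.79 and 1.15 in WT, and at day 7 at 1.93, 1.77 and 4.59 against 0.526, 0.0784 and 1.49. TCF-1 cKO exceeded WT without overlap for both genes at both stages, with mean ratios of 4.64 and 3.21 for Fasl and 6.37 and 3.96 for Tnfsf10 (exact permutation test, p = 0.1 each, the smallest possible). On the same ratio 44.1% of all genes were higher without overlap pre-transplant and 22.6% at day 7. Among the members, Fadd, Casp8, Cflar and Apaf1 were so too pre-transplant, and Fas and Cflar at day 7. On this scale Fasl was higher at day 7 than pre-transplant without overlap in TCF-1 cKO, as were 1.52% of all genes, but not in WT, where replicate 2 lay below its pre-transplant values (exact permutation p = 0.4). In the fit scaled this way, 4 members were called higher in pre-transplant TCF-1 cKO, Fasl, Tnfsf10, Fadd and Cflar (edgeR adjusted p = 0.0346, 0.0207, 0.0369 and 0.0322), among 5175 of 18757 genes higher and 40 lower. The denominator itself differed between genotypes pre-transplant, as given above, and its part in these values was not tested.

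**Figure D4:**
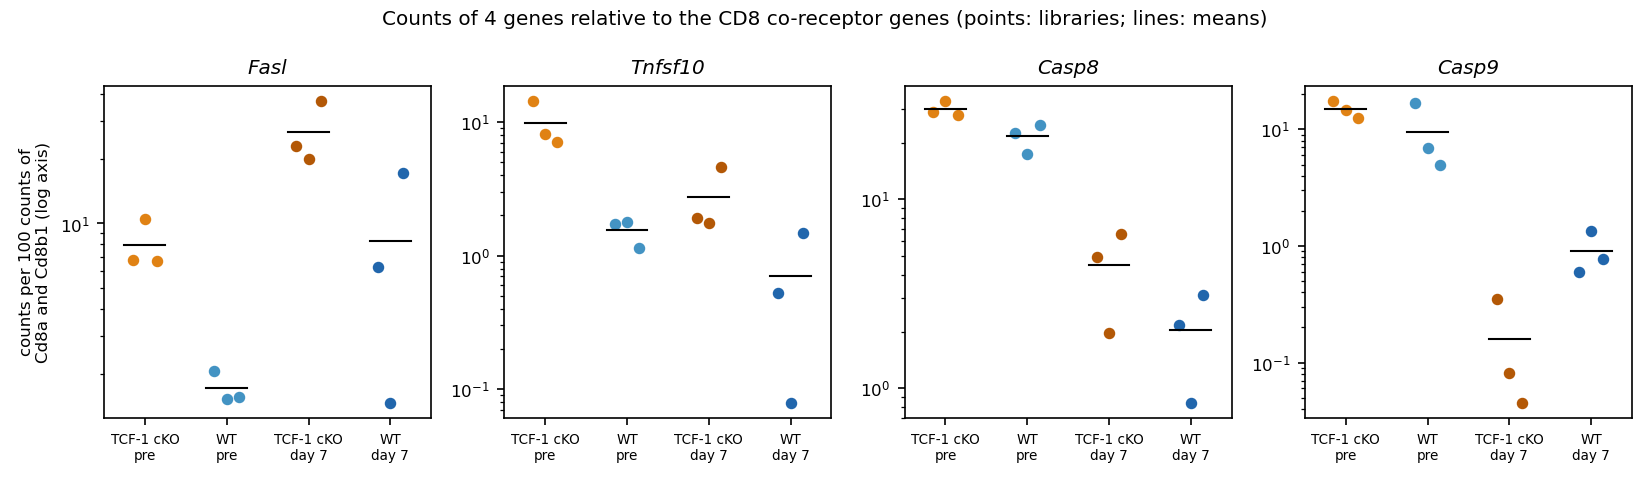
Counts of Fasl, Tnfsf10, Casp8 and Casp9 per 100 counts of Cd8a and Cd8b1 (log axes), with 1 point per library and a line at the mean of each group of 3. Fasl in TCF-1 cKO lies at 6.71 to 10.5 pre-transplant and 19.9 to 37.0 at day 7, and Casp8 and Casp9 lie lower at day 7 than pre-transplant in both genotypes. In the fit scaled to these counts, 68.3% of all genes were called lower at day 7 in WT and 87.9% in TCF-1 cKO.

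Levels can be compared between genes only per length, as TPM. On that scale the order in pre-transplant WT was Casp8 (63.8 ± 15.2 TPM, SD, n = 3), Cflar (57.6 ± 9.12), Casp9 (14.6 ± 8.85), Fas (13.4 ± 2.86), Apaf1 (9.62 ± 4.23), Fadd (5.44 ± 4.06), Fasl (5.24 ± 0.975) and Tnfsf10 (1.68 ± 0.343). Casp8 and Cflar overlapped each other and stood above the rest, the next 5 each overlapped the neighbor in the order, and Tnfsf10 lay below all of them. By day 7 Fasl led both groups, at 50.7 ± 42.0 TPM in WT, where it overlapped Cflar at 20.9 ± 7.47, and at 137 ± 15.0 TPM in TCF-1 cKO, where it did not overlap Cflar at 41.3 ± 6.26. Casp9 was last in day 7 TCF-1 cKO at 0.571 ± 0.677 TPM, an SD as large as the mean, and at 2.89 ± 1.33 TPM in day 7 WT. In pre-transplant TCF-1 cKO, Cflar (61.0 ± 17.4 TPM) and Casp8 (41.7 ± 6.75) led and Fasl was at 12.3 ± 3.94. These TPM values sum all transcripts of a gene. Protein-coding transcripts alone held 10.8 to 16.1 TPM of Cflar in pre-transplant WT and 8.84 to 23.8 TPM in pre-transplant TCF-1 cKO. At day 7 they held 0.436 to 3.06 TPM in WT and 2.07 to 4.19 TPM in TCF-1 cKO. Counted so, Cflar lay below Casp8, whose TPM was all protein-coding, in every library. TPM shares out a fixed total, so a rise of one gene lowers the others.

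Transcript assignment added differences that the gene sums hide. Tnfsf10 has a 5-exon transcript with 873 coding bases, Tnfsf10-201, and a 6-exon one with 684, Tnfsf10-202. The shorter coding form took 57.8%, 66.6% and 58.3% of Tnfsf10 TPM in day 7 TCF-1 cKO and 58.8% and 57.4% in day 7 WT replicates 1 and 3. It took 0% in day 7 WT replicate 2, which held 31 counts of the gene, and 0% to 3.65% in the pre-transplant libraries. In 5 of 6 day 7 libraries this share lay above that of all pre-transplant libraries, a difference that was not tested. By counts it was the smaller form, with 45.3 to 202 of 256 to 1129 estimated counts.

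For Fas, the transcript annotated as a target of nonsense-mediated decay, Fas-204, took 81.1%, 85.2% and 100% of Fas TPM in pre-transplant TCF-1 cKO, against 15.1%, 35.9% and 23.3% in pre-transplant WT. At day 7 it took 7.26%, 6.93% and 1.24% in TCF-1 cKO and 13.4%, 50.8% and 13.7% in WT. Protein-coding Fas transcripts held 0 to 1.78 TPM in pre-transplant TCF-1 cKO and 3.08 to 10.4 TPM in WT. Before transplant, TCF-1 cKO libraries held 24 to 80 counts of Fas in all, and Kallisto divides reads between transcripts that share sequence, so these shares are estimates without an error of their own. Casp8 TPM was protein-coding throughout, and Casp9-201 held 68.9% to 100% of Casp9. Coding transcripts took 16.0% to 31.8% of Cflar TPM pre-transplant and 3.16% to 13.0% at day 7, a difference that was not tested. TPM divides by length, so shares by counts differ and are not given here. In day 7 TCF-1 cKO replicate 1, for example, coding Cflar-205 held 254 estimated counts but 1.49 TPM. The processed transcript Cflar-208 held 67.8 counts but 15.3 TPM there. The other Cflar transcripts are annotated as processed transcripts or a retained intron. For Apaf1, coding transcripts took 15.6% to 100% of TPM.

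**Figure D5:**
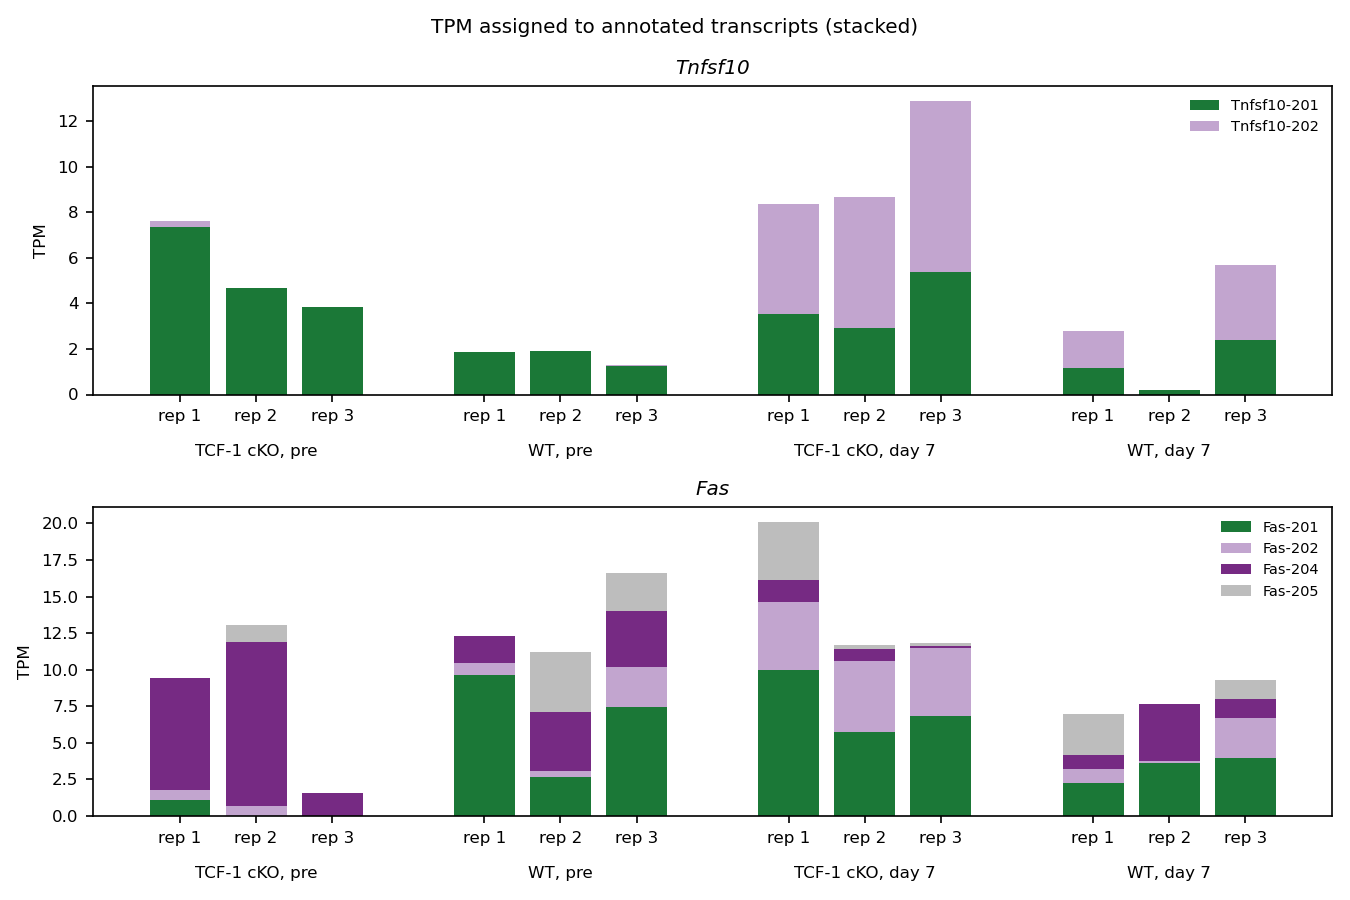
Stacked bars of the TPM assigned to the annotated transcripts of Tnfsf10 and Fas in each of the 12 libraries, which have no error of their own. Tnfsf10-202 appears at day 7 in 5 of 6 libraries, and Fas-204 makes up at least 81.1% of the bar in TCF-1 cKO before transplant.

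Beyond the 8 members, 53 further genes of the pathway were listed by role. Pre-transplant, 0 of the 51 tested were called between genotypes, and DESeq2 called 3, or 3 of 51 beside 7.74% of all genes. At day 7, 14 of 50 were lower in TCF-1 cKO and 0 higher, a share of 28.0% called against 17.9% of all genes. They were 6 of 13 adaptors and kinases, 3 of 7 receptors, 3 of 9 substrates, 1 ligand and the nuclease Endog, and 0 of the 6 caspases tested. Tradd, the adaptor of tumor necrosis factor receptor 1, was at 86.1, 51.3 and 90.7 CPM in TCF-1 cKO and at 365, 596 and 176 CPM in WT, a log2 fold change of -2.63 (SE 0.58, edgeR adjusted p = 0.0448). Dedd2, a death effector domain protein, had a difference of -2.88 (SE 0.69, adjusted p = 0.0455) and Lmnb1, a nuclear lamin cut by caspases, one of -2.73 (SE 0.67, adjusted p = 0.0459). Like Casp9, these genes are rich in GC. Each of the 14 lay above the 65th percentile, with Tradd at the 97.2th and Dedd2 at the 95.6th, without any library but WT replicate 3 the count was 0 and without that one it was 21, and with the offset for GC content and length 1 gene was called, Tradd being at -0.43 (adjusted p = 0.478).

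By stage, Birc5 and Cycs were among the listed genes called higher in both genotypes. Birc5, or survivin, is an inhibitor of apoptosis that dividing cells also need for mitosis. It ranged from 17.4 to 29.3 CPM in pre-transplant WT and 471 to 542 CPM in day 7 WT, and from 23.3 to 32.9 CPM and 608 to 804 CPM in TCF-1 cKO, with no overlap between stages. On the log2 scale it was higher by 4.18 in WT and 4.63 in TCF-1 cKO (edgeR adjusted p = 0.00118 and 0.00011), and by 1.83 and 0.89 scaled to CD8 counts (adjusted p = 0.0119 and 0.0644). Cycs, which encodes cytochrome c, ranged from 19.3 to 35.6 CPM and 57.4 to 474 CPM in WT and from 29.7 to 36.2 CPM and 528 to 809 CPM in TCF-1 cKO. It was higher by 2.85 and 4.26 (adjusted p = 0.0273 and 0.000129), which the CD8 scaling reduced to 0.72 and 0.58 (adjusted p = 0.389 and 0.267). The difference in stage change between genotypes was not called for any gene of the list, whose 52 tested members gave 0 calls.

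In all, 7 of 51 listed genes were higher and 7 lower at day 7 in WT, and 15 higher and 6 lower of 50 in TCF-1 cKO. With library totals the split was 6 higher and 11 lower in WT and 7 higher and 24 lower in TCF-1 cKO, and with CD8 scaling 2 and 36, and 2 and 42, where 68.3% and 87.9% of all genes were called lower. The caspase genes Casp1, Casp4 and Casp6 were among the 15 in TCF-1 cKO. Among the genes with the smallest p on the lower side were Lta, lymphotoxin alpha, which B cells also make, with 24.7 to 54.3 CPM in pre-transplant WT and 0.0481 to 2.34 CPM at day 7, and Parp1, a DNA repair enzyme and caspase substrate, at -1.76 in WT and -1.90 in TCF-1 cKO (edgeR adjusted p = 0.0543 and 0.00825). The inhibitors Birc6 and Birc3 were lower in WT by stage, at -2.50 and -2.66 (adjusted p = 0.0184 and 0.0490), and Lmna, a nuclear lamin, was lower in TCF-1 cKO at -2.98 (adjusted p = 0.00646). Tradd was higher in WT at 2.96 (adjusted p = 0.00894).

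Among the genes named whatever their values, Tnfrsf10b, the receptor for TRAIL, was at 59.3, 74.9 and 57.8 CPM in pre-transplant TCF-1 cKO and 27.9, 46.4 and 13.0 CPM in WT, without overlap. At day 7 it was at 29.8, 25.5 and 38.1 CPM against 9.77, 17.4 and 20.3 CPM, again without overlap. Neither genotype difference passed the test, at 1.38 (SE 0.51) and 0.76 (SE 0.45) with edgeR adjusted p of 0.231 and 0.300, and by stage it was lower in TCF-1 cKO at -1.05 (SE 0.36, adjusted p = 0.0548). Bid, which carries the caspase-8 signal to mitochondria, had genotype differences of -0.99 and -0.80 (adjusted p = 0.277 and 0.360). Xiap, an inhibitor of caspases, had 0.71 and 0.73 (adjusted p = 0.532 and 0.375), and Ripk1, a kinase of the receptor complexes, had -0.77 and -0.37 (adjusted p = 0.397 and 0.670).

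The protein-coding genes most like each member across the 12 libraries were found by the root mean square difference of centred log2(CPM + 0.5), as a description that stage and library composition shape. For Fasl they were Sh2d1a, which encodes the T cell adaptor SAP, and Cenpw, a centromere protein, at 0.40 and 0.42. For Tnfsf10 they were Haus2 and Rpp30 (0.37 and 0.42), for Fas Snx16 and Wdr92 (0.43 and 0.48), and for Casp8 Cntrl and Poglut1 (0.24 and 0.26). Cflar was nearest to Hacl1 and Zmat3 (0.24 and 0.26), Apaf1 to Ipo8 and Gm128 (0.27 and 0.29) and Fadd to Olfr308 and Atp2b2 (0.36 and 0.37). Casp9 had the least similar nearest genes, Prpf8 and Mettl17, at 0.52 and 0.60.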

How the data were processed

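Spleen cells sorted as CD8 T cells were lysed for RNA, amplified with SMART-Seq HT, which does not mark strand, and sequenced as paired ends. The authors quantified transcripts with Kallisto 0.46.2 (version from the submitters' processing notes, which also name limma and mm9), and the deposited files give, for each of 117497 transcripts, estimated counts and TPM values made by the authors. How the mm9 build relates to these transcripts is not given in the sources used here. Of the transcripts, 116374 were matched to a gene in the GENCODE annotation of GRCm38, holding 99.5% to 99.7% of the counts.

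Estimated counts were summed by gene and rounded to whole numbers, and TPM was summed by gene. Genes were filtered with edgeR's default filter by expression in each comparison. Groups of 3 were compared with edgeR 4.0.16 (quasi-likelihood test, TMM, R 4.3.3), each comparison fitted on its own 6 libraries and the change between stages on all 12, with Benjamini-Hochberg adjustment over all genes tested and a call at 0.1. The study itself used voom and limma on normalized TPM values. Scripts were tested on simulated data. In a library, 3 counts correspond to 0.0922 to 0.667 CPM, and this covers counting error only.

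Alternatives were limma 3.58.1, DESeq2 1.42.0, other scalings and filters, log2(TPM + 1), thinned counts, offsets for GC content and length (loess, span 0.4), a replicate block, and leaving out each library. CD8 scaling and protein-coding transcripts only were chosen after seeing the data. The 8 members, the pathway and marker lists and the motifs were chosen with earlier results of these data known. The genes named are all 8 members, up to 3 pathway genes per direction and comparison with the smallest p among those called, Bid, Cycs, Xiap, Tnfrsf10b, Ripk1 and Tcf7, and the 2 protein-coding genes most like each member. Some items that the rule names are not reported here. Parp1 in WT, Casp1, Casp4, Casp6 and Endog were named outside that rule after their values were seen. Replicates differed by more than counting noise, with Spearman correlations of 0.841 to 0.910 across genes. Figures were drawn with matplotlib 3.10.9.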

Additional observations from a re-analysis of the deposited data

How the results depend on the processing

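Depth limits the low genes, above all in TCF-1 cKO before transplant and for Casp9 at day 7. Fasl was called higher at day 7 in both genotypes under every alternative run, including each library left out, with log2 fold changes from 2.27 to 5.12 in WT and 1.74 to 5.67 in TCF-1 cKO. The causes of the changes below were not tested. The Casp9 difference at day 7 was not called with library totals, length-scaled TPM, an FDR of 0.05, the GC content and length offset, or that offset with the replicate block, each of which left 0 members called. Leaving out 1 library gave 0 to 3 members at day 7, the 3 only without WT replicate 3. Members called by stage in WT were 5 with library totals, 5 with log2(TPM + 1) and 7 with CD8 scaling (28.9%, 40.1% and 69.7% of all genes), and in TCF-1 cKO 8 with CD8 scaling (89.2%). All but 1 of these members in each case were lower. Pre-transplant, CD8 scaling called 4 members (27.8% of all genes). For the change between stages, DESeq2 called 1 member and CD8 scaling 1 (7.96% and 8.01%).

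Of the pathway list, pre-transplant calls were 3 with DESeq2, 1 without a filter and 8 with CD8 scaling, and 0 to 11 with 1 library left out, the 11 only without TCF-1 cKO replicate 3. Day 7 calls were 9 with limma-voom, 6 with library totals, 9 with log2(TPM + 1), 5 at an FDR of 0.05, 1 with the GC content and length offset, 0 with that offset and the replicate block, 4 with CD8 scaling and 0 to 21 with 1 library left out. By stage, calls were 38 in WT and 44 in TCF-1 cKO with CD8 scaling (69.7% and 89.2% of all genes), 36 in TCF-1 cKO with log2(TPM + 1) (71.1%), and 7 to 18 in WT with 1 library left out.

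The labels share replicate numbers, but deviations of same-numbered samples correlated at only -0.141 to 0.192, so the numbers were not taken to pair samples. With the replicate block, 7 pathway genes were called at day 7, and members called were 0 pre-transplant, 1 at day 7, 1 by stage in WT and 4 by stage in TCF-1 cKO.

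Some member values changed sign. Pre-transplant, Apaf1 was 0.37 with library totals, 0.027 with a CPM above 1 in 3 libraries, 0.86 with length-scaled TPM, 1.09 with log2(TPM + 1), 0.29 with thinned counts, 1.26 with CD8 scaling and 0.026 with protein-coding transcripts only. Cflar was -0.20 with length-scaled TPM, -0.057 with the offset and -0.087 with offset and block, and CD8 scaling gave 0.54 for Fas, 0.48 for Casp8 and 0.64 for Casp9. The median of all genes with that scaling was 1.26. Relative to it these 3 values were -0.72, -0.78 and -0.62, since the subtraction removes the shift that scaling brings. At day 7 the offset gave -0.60 for Fas and -0.74 for Apaf1, and offset and block -0.30 for Fas, -0.018 for Casp8 and -0.72 for Apaf1. By stage in WT, library totals gave -0.60 for Fas and -0.61 for Fadd, log2(TPM + 1) -0.67 and -0.51, the offset 0.016 for Apaf1, offset and block 0.057 for Apaf1, and CD8 scaling -1.15 for Tnfsf10, -1.95 for Fas and -2.00 for Fadd. By stage in TCF-1 cKO, Casp8 was -0.63 with library totals and -0.97 with log2(TPM + 1), Cflar 1.36 with length-scaled TPM, Fadd 0.24 with the offset and 0.19 with offset and block, Apaf1 0.025 with offset and block, and CD8 scaling gave -1.84 for Tnfsf10, -1.51 for Fas and -2.73 for Casp8. The change between stages was -0.25 for Apaf1 with length-scaled TPM and -0.73 with log2(TPM + 1), and with CD8 scaling -0.53 for Fasl, -0.68 for Tnfsf10, -0.56 for Cflar and -0.53 for Apaf1. For that change the median of all genes with CD8 scaling was -1.12. With 1 library left out, Apaf1 ranged from -0.37 to 0.23 pre-transplant, -0.094 to 0.35 at day 7 and -0.35 to 0.19 by stage in TCF-1 cKO, Casp9 from -0.94 to 0.10 pre-transplant and Cflar from -0.21 to 0.17 by stage in TCF-1 cKO.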
